A study of Mus musculus with 2 samples.

Results

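CTCF sites that were found in both cell types but stood much higher in the embryonic stem cell list than in the neural precursor list are described here. A site was a pair of autosomal CTCF peaks, 1 from each list, that overlapped each other by at least 1 bp and overlapped no other peak of the opposite list. Sites were selected on the scores of both lists: each peak's score was turned into a percentile, the rank of the score within its own full list on a scale of 0 to 100. Pairs whose percentile was at least 40 points higher in embryonic stem cells (ESC) than in neural precursor cells (NPC) were taken, and they are called ESC-higher sites below. There were 2472 of them among 38591 autosomal pairs, which is 6.41% of the pairs. The opposite set, NPC-higher sites with at least 40 points more in NPC, held 1642 pairs, or 4.25%. The number of ESC-higher sites depends on the limits set: it was 4775 at 30 points, 1106 at 50 points and 1404 where both peaks of a pair had to overlap by 50% of their width.

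The study mapped CTCF by chromatin immunoprecipitation and sequencing in 2 mouse samples, 1 library each. The ESC sample was the E14 line (E14Tg2A, IB10 cells), grown in serum with leukemia inhibitory factor, which holds the cells undifferentiated. The NPC sample was derived from E14 ESC and grown with N2 supplement, basic FGF and EGF, growth factors that maintain neural precursors. Both carried no stated genetic change and were precipitated with the same anti-CTCF antibody. The lists hold 54151 ESC peaks and 51421 NPC peaks on mm9, with a median width of 573 bp in ESC and 433 bp in NPC, and no read counts, so the depth of either library is unknown. The identity of the cells could not be checked against marker genes in peak lists. With 1 library per cell type there was no replicate check and no test between cell types, and intervals below are 95% intervals for counting error over peaks only. Sites that lie close together share neighbours and are not independent, so these intervals are too narrow.

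CTCF is a DNA-binding protein with a row of zinc fingers, and many of its sites are anchors at which cohesin stops while it extrudes chromatin loops. The orientation of the bound motif sets the side on which cohesin is held, and the series asks how that polarity shapes looping. Most CTCF sites are bound in many tissues, while a part varies with cell type, for example with DNA methylation of the motif. The files do not define the peak score, so it was used only as a rank within its own list.

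The ESC-higher sites were chosen by these score percentiles, which are therefore given as a description. In ESC the sites had a median percentile of 73.8 (quartiles 61.7 and 85.1). In NPC the same sites had a median percentile of 20.4 (quartiles 9.04 and 33.2). These were therefore mid-ranking to strong ESC peaks whose NPC partners mostly lay in the lower part of the NPC list. Below the 10th NPC percentile lay 671 of the partners (27.1%), and above the 90th ESC percentile lay 385 sites (15.6%). The difference was between 40 and 50 points at 1366 sites, between 50 and 60 points at 684 and 60 points or more at 422. It reached 80 points at 33 sites, while 20 pairs showed 80 points or more in the other direction.

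**Figure D1:**
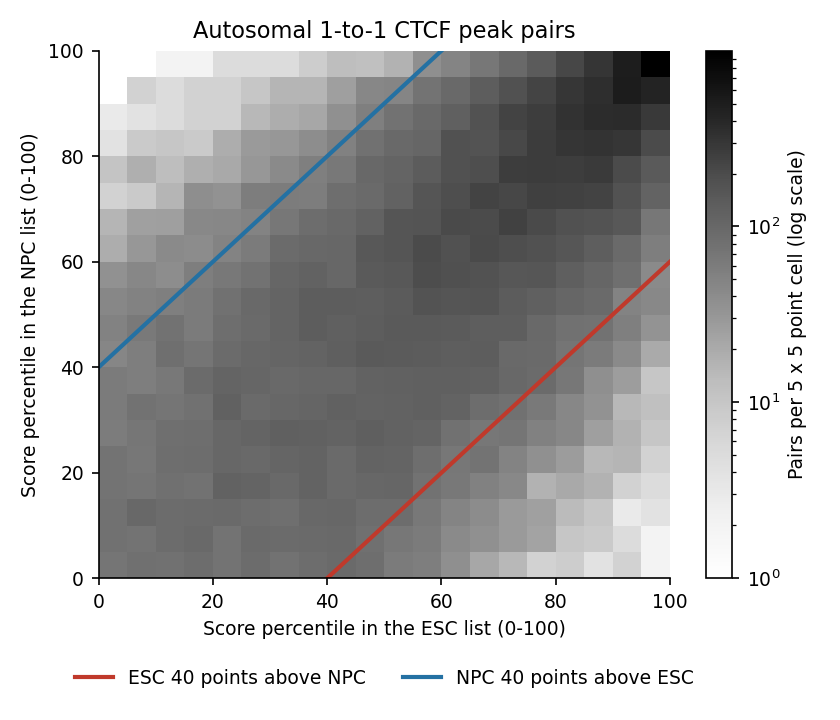
Each cell counts autosomal 1-to-1 CTCF peak pairs by their score percentile in the ESC list (horizontal, 0 to 100) and in the NPC list (vertical, 0 to 100), with a log grey scale. The 2472 ESC-higher sites lie below the red line and the 1642 NPC-higher sites above the blue line, both away from the dense upper right corner of pairs that ranked high in both lists.

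The threshold cut through a continuous range of differences. The 3 sites just inside it had differences of 40.03, 40.01 and 40.01 points. One of them, on chromosome 1 at 190846840 to 190847682, had a percentile of 70.3 in ESC and 30.3 in NPC. The 3 pairs just outside had differences of 39.99, 39.98 and 39.98 points, such as the pair on chromosome 6 at 30485205 to 30485748, with a percentile of 68.3 in ESC and 28.3 in NPC. The differences ran on without a gap at the limit.

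The largest difference was on chromosome 2. The ESC peak at 104680805 to 104681706 was 902 bp wide and scored 2125 (percentile 97.5), and its NPC partner was 239 bp wide and scored 106 (percentile 2.25), close to the lowest NPC score of 100. Of the other ESC peaks within 50 kb of this site, 7 of 11 had no NPC overlap. The second site, on chromosome 19 at 60236776 to 60237415, scored 2105 in ESC (percentile 97.4) and 108 in NPC (percentile 2.95). It differed from the first in its surroundings, with 2 other ESC peaks within 50 kb, neither of them ESC-only. The third, on chromosome 5 at 149186877 to 149187517, scored 1792 in ESC (percentile 94.8) and 102 in NPC (percentile 0.915), and 6 other ESC-higher sites lay within 100 kb.

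All 12 sites with the largest differences, 86.3 points or more, had NPC scores between 101 and 118, at the bottom of that list, and ESC scores between 1464 and 2125. They lay on 7 chromosomes. Chromosome 2 also held the sites at 168747457 to 168748464 (difference 92.1 points) and 167070119 to 167070917 (89.9 points). Chromosome 18 held those at 37609223 to 37610056 (91.7 points) and 37644155 to 37644919 (86.5 points). A pair of sites on chromosome 1, at 138606651 to 138607268 (88.9 points) and 138655215 to 138656208 (88.2 points), lay near each other. The remaining ones were on chromosome 6 at 38254802 to 38255555 (88.9 points) and 51985932 to 51986740 (86.3 points) and on chromosome 4 at 11431853 to 11432671 (87.0 points). At least 1 ESC-only peak was found within 50 kb of 11 of the 12, and another ESC-higher site within 100 kb of 9; over all pairs these shares were 54.3% and 28.1%. The 12 are not separate, since both sites of chromosome 1 and both of chromosome 18 lie within 100 kb of each other and count one another.

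The sites with the highest ESC scores had smaller differences, because their NPC partners were of middle rank. On chromosome 5 the ESC peak at 148737275 to 148737982 scored 3156 (percentile 99.95), and its NPC partner scored 449 (percentile 54.8). A further 5 sites had an ESC score of exactly 3100, a value at which scores piled up in both lists, so their order is arbitrary. The 4 that the naming rule reached lay on chromosome 5 at 131426651 to 131427443, on chromosome 3 at 85806066 to 85807026, on chromosome 17 at 30851442 to 30852424 and on chromosome 8 at 28230931 to 28231829. Their NPC partners scored 295, 304, 436 and 491 in that order, with percentiles of 41.5, 42.4, 53.8 and 57.5.

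ESC-higher sites had wide ESC peaks and narrow NPC peaks. The median ESC peak was 667 bp wide (663 to 672), and the median for all other pairs was 616 bp (614 to 618). The median NPC peak was 346 bp (342 to 350) at ESC-higher sites and 474 bp (472 to 475) at other pairs. Within a pair the NPC peak had a median of 0.519 of the ESC width at ESC-higher sites, against 0.776 at other pairs and 1.11 at NPC-higher sites. At none of the 2472 ESC-higher sites was the NPC peak the wider one, which allows a share of up to 0.121% (3 counts), while it was wider at 13.3% of other pairs. The widest ESC peak of the set, on chromosome 5 at 136393388 to 136394960, spanned 1573 bp over an NPC peak of 430 bp. The narrowest, on chromosome 4 at 94209746 to 94210073, spanned 328 bp over an NPC peak of 303 bp.

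Width followed the score in both lists, and the scores had chosen the sites. In bands of 10 percentile points the ESC peaks of ESC-higher sites and of other pairs had nearly equal widths. From the 70th to the 80th ESC percentile the medians were 678.5 bp at 552 ESC-higher sites and 680 bp at 4624 other pairs, and from the 90th to the 100th they were 769 bp and 768 bp. In all 6 NPC bands that held ESC-higher sites their median was slightly larger, with intervals that overlapped in each. The medians were 285 bp (280 to 289) at ESC-higher sites and 281 bp (278 to 284) at other pairs from 0 to 10, and 430 bp (416 to 437) and 419 bp (416 to 422) from the 40th to the 50th percentile. At equal rank, then, the peaks had close to the width of other peaks in the same list.

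**Figure D2:**
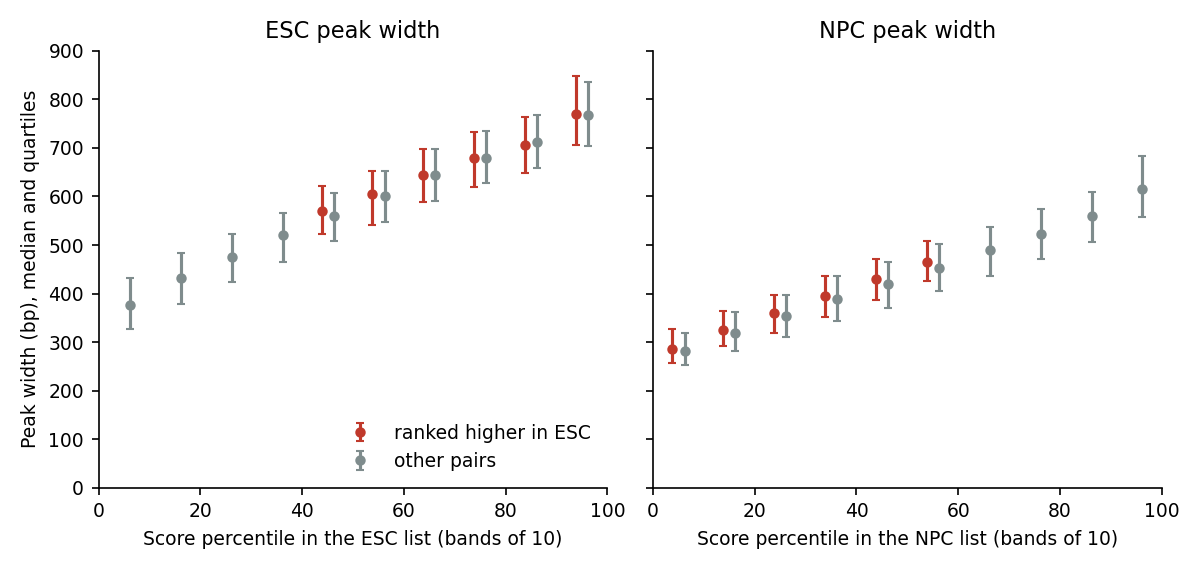
Peak width in bp (vertical; points are medians, bars run between the quartiles) by score percentile in bands of 10 (horizontal) for ESC peaks on the left and NPC peaks on the right, with ESC-higher sites in red and other pairs in grey. Red and grey points of the same band nearly coincide, as with 678.5 bp and 680 bp from the 70th to the 80th ESC percentile.

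The 2 peaks of most ESC-higher sites marked nearly the same place. Their centres were a median of 35 bp apart (33.5 to 37), against 32 bp (31.5 to 32) at other pairs. This small difference was lost with the 50% overlap, where both medians were 32 bp. Some centres lay farther apart. The upper quartile was 63 bp at ESC-higher sites and 54.5 bp at other pairs, and the largest distances were 470.5 and 458 bp. At the site with the largest percentile difference the centres were 195.5 bp apart. The NPC peak lay wholly inside the ESC peak at 2415 of the 2472 sites (97.7%, 97.0 to 98.2), against 69.0% of other pairs. Among pairs with an ESC percentile of at least 40 that were not ESC-higher, a set of similar ESC width (median 665 bp), this share was 75.5%, but their NPC peaks were wider (median 505 bp). Narrow NPC peaks go with the low NPC scores that the sites were chosen by, so the nesting is a description and not a feature apart from the selection. Centre distance was larger where the difference was larger, with a median of 44.5 bp (38.5 to 48) at the 422 sites with 60 points or more and 33.5 bp (31.5 to 35.5) at the 1366 sites with 40 to 50 points. The 422 sites also had wider ESC peaks (median 702 against 655.5 bp) and narrower NPC peaks (321 against 363.5 bp). Whether the centre distance differed at equal widths was not tested.

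Peaks found in ESC alone were more frequent around ESC-higher sites. At least 1 ESC-only peak, meaning an ESC peak that no NPC peak overlapped, lay within 50 kb of 1585 of the 2472 sites (64.1%, 62.2 to 66.0). At other pairs this share was 53.6% (53.1 to 54.1), and at NPC-higher sites 46.5% (44.1 to 49.0). Other pairs with an ESC percentile of at least 40 were at 55.3% (54.7 to 55.9), so the difference was also present among pairs in that range of ESC ranks. At least 5 ESC-only peaks lay within 50 kb of 132 ESC-higher sites (5.34%, 4.49 to 6.30) and of 2.14% (1.99 to 2.29) of other pairs.

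ESC-higher sites had somewhat more ESC peaks around them, and a larger part of these was ESC-only. The mean number of other ESC peaks within 50 kb was 4.70 at ESC-higher sites (median 4, quartiles 2 and 7) and 4.05 at other pairs (median 4, quartiles 2 and 6), so the higher share of sites with an ESC-only peak nearby went with more peaks as well as with their make-up. Summed over sites, 3605 of 11620 neighbouring ESC peaks (31.0%) were ESC-only around ESC-higher sites, against 24.7% around other pairs and 20.7% around NPC-higher sites. In the whole autosomal ESC list 25.8% of peaks were ESC-only. The peaks directly before and after the site in the ESC list were both ESC-only at 278 ESC-higher sites (11.2%, 10.0 to 12.6) and at 6.26% (6.01 to 6.51) of other pairs.

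The share changed gradually with the size of the difference. ESC-only peaks lay within 50 kb of 61.3% (58.7 to 63.9) of the sites with differences of 40 to 50 points, of 64.6% (60.9 to 68.2) of those with 50 to 60 points and of 72.3% (67.7 to 76.5) of those with 60 points or more. Over all pairs it went up step by step, from 42.7% (36.5 to 49.2) where NPC was ahead by 60 points or more, through 54.8% (53.9 to 55.7) from 0 to 20 points. The 40-point limit was thus 1 place on a graded relation. NPC-only peaks lay within 50 kb of 43.7% (41.7 to 45.7) of ESC-higher sites and of 46.9% (46.4 to 47.4) of other pairs. Their share was highest, at 57.7% (51.2 to 63.9), where NPC was ahead by 60 points or more. At differences of 0 to 20 points it was 43.9% (43.0 to 44.8), close to that of ESC-higher sites.

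**Figure D3:**
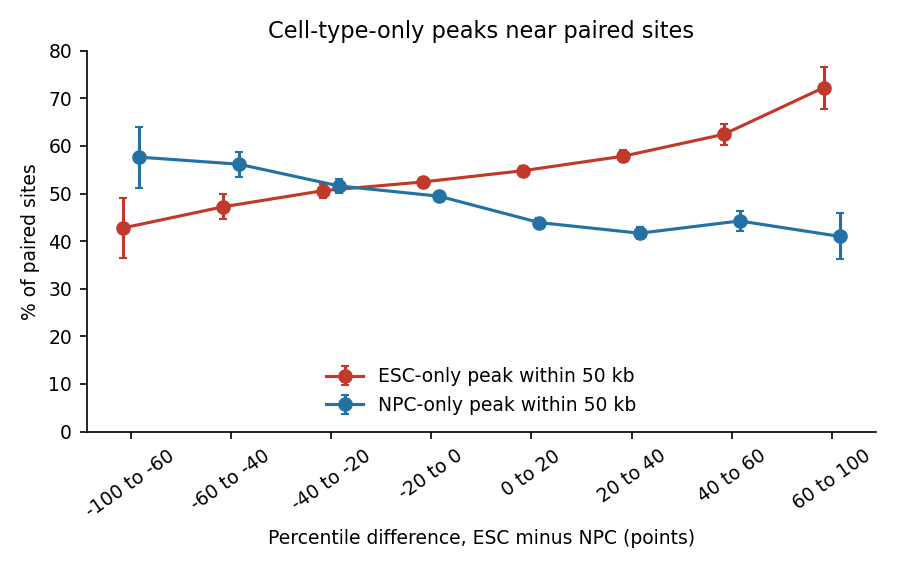
The percentage of paired sites with an ESC-only peak (red) or an NPC-only peak (blue) within 50 kb (vertical) by the percentile difference, ESC minus NPC, in points (horizontal), with bars for 95% intervals. The red points go up from 42.7% in the lowest bin to 72.3% in the highest, and the blue points lie lower on the right (41.0%) than on the left (57.7%).

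ESC-only peaks near ESC-higher sites also tended to score higher than other ESC-only peaks. Within 50 kb of an ESC-higher site lay 2818 of the 13604 autosomal ESC-only peaks (20.7%), with a median score of 203 (197 to 209). The other 10786 had a median score of 190 (187 to 193). Above the median of the ESC list were 385 of the nearby peaks (13.7%, 12.4 to 14.99) and 8.62% (8.10 to 9.17) of the others. Such stronger ESC-only peaks lay within 50 kb of 16.0% (14.6 to 17.5) of ESC-higher sites and of 9.08% (8.78 to 9.38) of other pairs.

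The surroundings differed over long distances. From 0 to 10 kb from ESC-higher sites 32.6% of ESC peaks were ESC-only, against 23.2% around other pairs and 18.2% around NPC-higher sites. From 500 to 1000 kb the shares were 28.2% around ESC-higher sites, 25.7% around other pairs and 24.1% around NPC-higher sites. The order of the 3 sets was the same in all 7 distance classes, and the gap between them was smaller farther out.

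**Figure D4:**
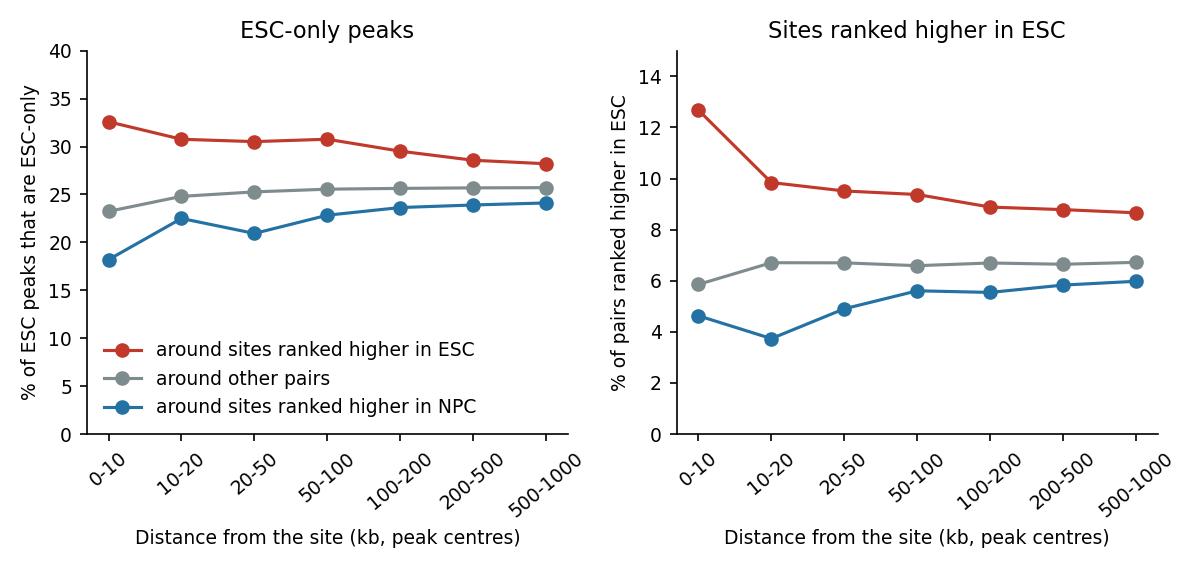
Left, the percentage of ESC peaks that are ESC-only, and right, the percentage of paired sites that are ESC-higher (both vertical), by distance in kb between peak centres (horizontal), around ESC-higher sites (red), other pairs (grey) and NPC-higher sites (blue). Red lies above grey and grey above blue at every distance. Of the paired sites within 10 kb of an ESC-higher site 12.7% were ESC-higher, against 5.86% around other pairs.

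ESC-higher sites lay near each other more often than other pairs lay near them. Another ESC-higher site was found within 100 kb of 954 of the 2472 sites (38.6%, 36.7 to 40.5), whereas 27.3% (26.9 to 27.8) of other pairs had an ESC-higher site within 100 kb. With the 1404 sites of the 50% overlap these shares were 24.8% and 17.3%. Of the paired sites within 10 kb of an ESC-higher site, 214 of 1688 (12.7%) were ESC-higher themselves, above the 6.41% of all pairs, and from 500 to 1000 kb 8.66% still were. Around other pairs these shares were 5.86% and 6.72%. NPC-higher sites also lay near each other, with another of their kind within 100 kb at 28.1% (26.0 to 30.4) of them. An NPC-higher site lay in that range at 20.1% (19.7 to 20.5) of all pairs and at 16.6% (15.1 to 18.1) of ESC-higher sites. For ESC-higher sites the share over all pairs was 28.1% (27.6 to 28.5). Lying near others of the same kind was thus not particular to ESC-higher sites.

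Neighbouring paired sites leaned the same way as the site itself. The mean percentile difference of the other pairs within 50 kb had a median of 6.51 points (5.79 to 7.41) around ESC-higher sites, 1.43 points (1.24 to 1.64) around other pairs and -2.71 points (-3.58 to -1.82) around NPC-higher sites. With the 50% overlap it was 3.16 points (1.89 to 4.31) around ESC-higher sites and -0.446 points around other pairs. It was above 0 around 63.7% (61.6 to 65.7) of ESC-higher sites with such neighbours and around 54.1% (53.5 to 54.6) of other pairs. The lean was small beside the 40 points that define the set, and most neighbours of an ESC-higher site were not ESC-higher. The neighbours averaged here did include other ESC-higher sites, so the lean is not separate from the clustering above. From 20 to 50 kb, 9.51% of pairs around ESC-higher sites were ESC-higher, against 6.70% around other pairs. The lean of the remaining neighbours alone was not tested.

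Most ESC-higher sites stood alone in the order of paired sites. With pairs taken in order along a chromosome, 2000 were flanked by no other ESC-higher site, and 472 formed 217 unbroken runs of 2 or more. Shared peaks that were not in a 1-to-1 pair were passed over in this order. There were 188 runs of 2 sites, 24 of 3, 1 of 4 and 4 of 5. The 1642 NPC-higher sites formed 95 such runs with 197 sites, and none was longer than 3. That set is a smaller share of all pairs, 4.25% against 6.41% for the 2472 ESC-higher sites. Fewer and shorter runs go with a smaller share, so the 2 run counts are not directly comparable.

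The most compact run of 5 lay on chromosome 5 at 149157935 to 149192115, over 34.2 kb. Its ESC percentiles were 87.0, 69.1, 96.4, 94.8 and 87.8 in order along the chromosome, and its NPC percentiles were 10.4, 22.2, 44.4, 0.915 and 8.06. All 5 ESC peaks were in the upper part of the ESC list, while 3 of the NPC partners were near the bottom of theirs. This run held 1 further ESC peak, which was ESC-only, and no further NPC peak.

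A second run of 5 lay on chromosome 12 at 70227912 to 70330808, over 103 kb. In order, its ESC percentiles were 89.3, 91.2, 69.6, 62.3 and 72.8, and its NPC percentiles 21.5, 18.9, 4.48, 11.5 and 17.3. Interleaved with the 5 sites were 7 ESC-only peaks, so all 12 ESC peaks there were either ESC-only or ESC-higher, and the 5 NPC peaks of the interval were the partners. The third, on chromosome 2 at 170426526 to 170533812 (107 kb), had ESC percentiles of 57.5, 71.3, 80.9, 93.0 and 77.5 and NPC percentiles of 4.64, 18.9, 38.3, 44.8 and 28.2. It held 1 ESC-only peak among 7 ESC peaks, so that a run of ESC-higher sites did not always come with many ESC-only peaks. None of its 7 NPC peaks was NPC-only, so shared peaks outside the 1-to-1 pairs also lay in this run.

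In windows of 1 Mb, 1163 of the 2356 windows with a pair held no ESC-higher site, and 84 windows held 5 or more. Those 84 windows held 555 of the sites (22.5%). For the smaller set of 1642 NPC-higher sites 30 windows held 5 or more. Windows with 10 or more ESC-higher sites numbered 8, and 5 of these were on chromosome 5.

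The highest count, 15 sites, was reached in 2 windows. On chromosome 5 from 149 to 150 Mb, 15 of 45 pairs (33.3%, 20.0 to 49.0) were ESC-higher, none was NPC-higher, and 38 of the 45 had the higher percentile in ESC. On chromosome 18 from 37 to 38 Mb, 15 of 46 pairs (32.6%, 19.5 to 48.0) were ESC-higher, 1 was NPC-higher and 40 had the higher percentile in ESC. The third window, on chromosome 5 from 148 to 149 Mb, held 13 of 38 pairs (34.2%, 19.6 to 51.4). In all 3 windows ESC-only peaks were frequent too, with 32 of 77, 39 of 87 and 45 of 83 ESC peaks. The windows were picked for their counts of ESC-higher sites.

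The chromosome 18 window also held the 3 ESC-higher sites with most ESC-only neighbours. Within 50 kb of the sites at 37644155 to 37644919 and 37632825 to 37633451, 14 of 18 other ESC peaks were ESC-only, and within 50 kb of that at 37609223 to 37610056, 10 of 17. Their NPC percentiles were 7.27, 24.8 and 2.55 in that order, and their ESC percentiles 93.8, 84.1 and 94.2. No NPC-only peak lay within 50 kb of any of the 3. Clustered protocadherin genes, whose promoters are bound by CTCF and whose products serve recognition between neurons, are on this mouse chromosome; the sites were not assigned to genes here.

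ESC-higher sites were found on all 19 autosomes, in uneven shares. On 17 of them between 5.28% and 7.88% of the pairs were ESC-higher, around the 6.41% of all pairs. Chromosome 5 had the highest share, with 268 of 2785 pairs (9.62%, 8.55 to 10.8), and chromosome 15 the lowest, with 40 of 1834 (2.18%, 1.56 to 2.96). The intervals also left out 6.41% on chromosome 17, with 132 of 1676 pairs (7.88%, 6.63 to 9.27), and narrowly on chromosome 3, with 101 of 1912 (5.28%, 4.32 to 6.38). Chromosome 15 was the only autosome with more NPC-higher sites (172, 9.38%) than ESC-higher sites; on the others 2.96% to 4.70% of pairs were NPC-higher.

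**Figure D5:**
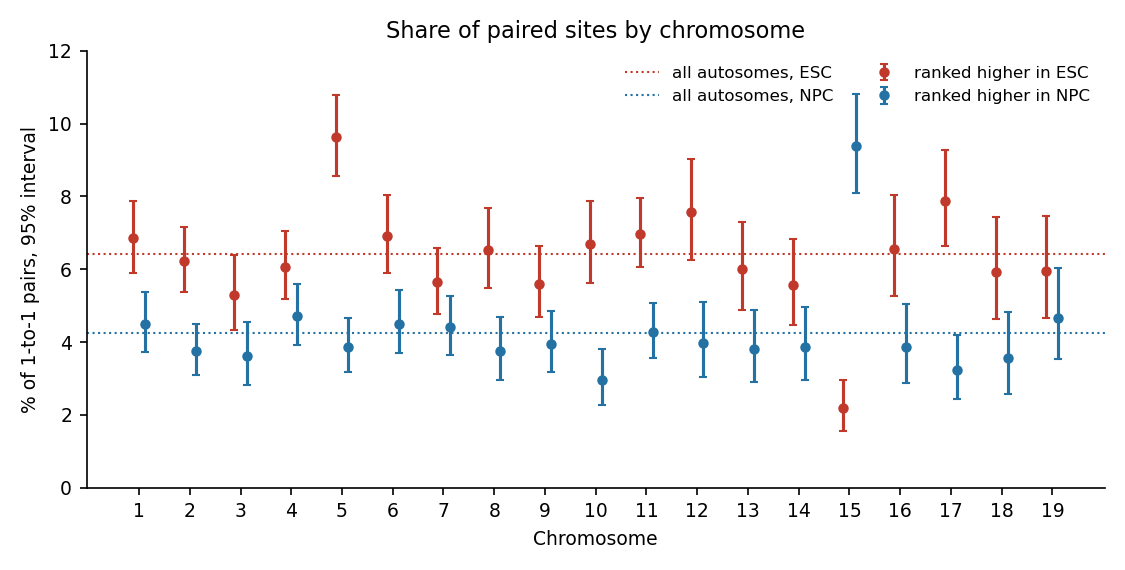
The percentage of 1-to-1 pairs that are ESC-higher (red) or NPC-higher (blue) on each autosome (vertical), with bars for 95% intervals and dotted lines at the shares over all autosomes (6.41% and 4.25%). Chromosome 5 stands highest in red at 9.62%, and chromosome 15 stands lowest in red at 2.18% and highest in blue at 9.38%.

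The low share on chromosome 15 did not come from 1 region. All 11 of its segments of 10 Mb lay below 6.41%, although 5 of them had intervals reaching above it. The shares lay between 0 of 94 pairs from 0 to 10 Mb, which allows up to 3.19%, and 4 of 89 pairs (4.49%, 1.24 to 11.1) from 10 to 20 Mb. The median difference over all pairs of the chromosome was -8.36 points, against -0.363 to 4.65 points on the other autosomes. The segment from 40 to 50 Mb went the other way, with a median difference of 2.29 points, 3 ESC-higher and 2 NPC-higher sites among 72 pairs. Of the ESC peaks on chromosome 15, 15.9% were ESC-only, the lowest share among the autosomes.

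On chromosome 5 the sites were concentrated in the distal part. Each of its 6 segments from 100 to 160 Mb lay above 6.41%, from 9.19% (5.44 to 14.3) between 100 and 110 Mb to 24.5% (16.4 to 34.2) between 150 and 160 Mb, where 24 of 98 pairs were ESC-higher and none was NPC-higher. From 30 to 40 Mb the share was 3.17% (1.38 to 6.16). Stretches of neighbouring 1 Mb windows in which each window held at least 4 ESC-higher sites and at least 20% of its pairs were ESC-higher, a rule set after the values had been seen, numbered 4 on the autosomes. On chromosome 5 they ran from 148 to 152 Mb, with 51 ESC-higher sites among 173 pairs (29.5%, 22.8 to 36.9), and from 126 to 129 Mb, with 23 among 72 (31.9%, 21.4 to 44.0). The others were on chromosome 2 from 169 to 171 Mb, with 14 of 52 pairs (26.9%, 15.6 to 41.0), and on chromosome 12 from 76 to 78 Mb, with 10 of 35 (28.6%, 14.6 to 46.3). With its 2 stretches left out, chromosome 5 had 194 ESC-higher sites among 2540 pairs (7.64%, 6.63 to 8.74), closer to the 6.41% of all pairs but with an interval still above it.

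Of 176 segments of 10 Mb with at least 100 pairs, that on chromosome 12 between 70 and 80 Mb had the highest share. There 30 of 138 pairs (21.7%, 15.2 to 29.6) were ESC-higher, 1 was NPC-higher and 46.3% of ESC peaks were ESC-only. On chromosome 4 from 100 to 110 Mb 3 of 195 pairs (1.54%, 0.318 to 4.43) were ESC-higher and 22 were NPC-higher. The segment on chromosome 9 from 80 to 90 Mb was the only one of the 176 with none, among 108 pairs, which allows up to 2.78%.

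The widths of ESC-higher sites varied little by chromosome, while their surroundings varied more. Their median ESC width was between 644 and 693 bp and their median NPC width between 332 and 369.5 bp on the 19 autosomes. An ESC-only peak within 50 kb was more frequent at ESC-higher sites than at other pairs on 18 of the 19, and not on chromosome 19, where the shares were 57.1% (44.7 to 68.9) and 57.2%. Among chromosomes this share was highest on chromosome 5, at 79.1% (73.7 to 83.8) of ESC-higher sites against 62.5% of other pairs, and lowest on chromosome 14, at 48.2% (37.3 to 59.3) against 42.7%. Another ESC-higher site within 100 kb was more frequent at ESC-higher sites on all 19 autosomes, and was found at between 22.8% of them on chromosome 3 and 56.7% on chromosome 5. On chromosome 15, with few of them, it was found at 42.5% of the 40 ESC-higher sites and an ESC-higher site lay that close to 11.1% of other pairs. On several chromosomes the 2 shares were nearly equal, as on chromosomes 12 (27.7% and 27.5%), 11 (38.3% and 37.7%), 17 (37.9% and 37.2%) and 19 (28.6% and 27.6%).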

How the data were processed

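CTCF was measured in 1 ESC and 1 NPC library, sequenced on SOLiD, per the labels' protocols. Peaks were called with MACS for each library, per the file headers, with coordinates from mm9 according to the submitters' processing notes; MACS settings, control and aligner were not given in the sources used here. For each peak the authors deposited a start, an end and an undefined score. Both track names end in CONTROL, which was not interpreted: each list is labelled as CTCF and was used so. Read depth is unknown.

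Percentiles are mean ranks in the full own list. Distances are between peak centres. Shares carry exact Clopper-Pearson 95% intervals, medians order-statistic intervals, and a count of 0 the share that 3 counts would give. Pairing was checked against bedtools. The selection was run on a shifted copy of the ESC list with scores lowered at planted peaks, which checks the code and not the sites. Python 3.11.15, numpy 2.4.6, pandas 2.3.3, scipy 1.17.1 and matplotlib 3.10.9 were used.

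The sites and measures were chosen with earlier results of these data known. Named sites are the 12 with the largest difference, the 3 nearest each side of the threshold, the 5 with the highest ESC score, the 3 with most ESC-only neighbours, the widest and narrowest, the 3 windows with most sites and the 3 longest runs, ties going to the shorter; other windows, segments and stretches were chosen after seeing the data. Sequence, motifs and genes were not analysed here, for want of an mm9 reference in this work.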

Additional observations from a re-analysis of the deposited data

How the results depend on the processing

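Depth is unknown, so how far the calling limit bears on low NPC ranks was not tested. No paired analysis was possible because each cell type has 1 library, and for the same reason none was left out. No alternative turned a direction round: 53 of 96 recomputed values stayed within their interval (counts within 1.5 times). The following moved. Values at other pairs are in parentheses, and for chromosomes 5 and 15 the share on the other autosomes. With a difference of at least 30 points there were 4775 sites, and ESC and NPC widths were 651 and 357 bp. Clustering was 53.6% (43.3%), ESC-only neighbours 61.8% (53.2%), chromosome 5 18.2% (11.9%) and chromosome 15 5.13% (12.7%). With at least 50 points the values were 1106 sites, 682.5 and 330 bp, 24.8% (14.5%), 67.5% (53.9%), 4.45% (2.74%), 0.818% (2.97%) and a centre distance of 38.25 bp. A 50% reciprocal overlap, which drops pairs whose NPC peak is under 50% of the ESC width, left 1404 sites, with 646 and 386 bp. Clustering was then 24.8% (17.3%), the neighbouring difference 3.16 points (-0.446), chromosome 5 5.85% (3.74%) and chromosome 15 1.40% (4.02%). The centre distance was 32 bp, the same as at other pairs. Centres within 100 bp gave 661 bp, clustering 35.8% (24.96%) and 31.5 bp. Percentiles among pairs gave 699 and 376 bp and 5.06 points (-0.517), and lists of equal length gave 674 bp, 36.0% (25.4%), 61.4% (49.7%) and 5.54 points (0.0955). Clustering was 26.3% (16.2%) within 50 kb, 19.1% (11.8%) for the next paired site and, added after seeing the data, 36.4% (26.4%) without chromosome 5. ESC-only neighbours were at 41.7% (30.6%) within 20 kb, 80.1% (71.7%) within 100 kb, 51.01% (40.5%) for adjacent peaks, 61.2% (50.5%) with unshared meaning no NPC peak within 1 kb, and 16.0% (9.08%) for those above the list median. Of pairs with an ESC percentile of at least 40, 12.5% on chromosome 5 and 3.13% on chromosome 15 were ESC-higher (8.28% and 8.85% elsewhere). The motif alternative was not run, for want of mm9 sequence.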

Other observations

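Some ESC-higher sites had no other ESC peak nearby or stood beside sites of the opposite kind. NPC peaks did not enter the count of neighbouring ESC peaks. No other ESC peak lay within 50 kb of 187 of the 2472 ESC-higher sites (7.56%, 6.55 to 8.68), against 9.14% (8.84 to 9.44) of other pairs. Among other pairs with an ESC percentile of at least 40 this share was 7.92% (7.59 to 8.25), close to that of ESC-higher sites. An NPC-higher site lay within 100 kb of 410 ESC-higher sites (16.6%, 15.1 to 18.1), against 20.4% (20.0 to 20.8) of other pairs. Mixed neighbourhoods therefore occurred, as on chromosome 17 from 27 to 28 Mb, where 9 of 54 pairs were ESC-higher and 5 were NPC-higher, with a median difference of 2.15 points over all pairs. On chromosome 17 from 28 to 29 Mb 10 of 57 pairs were ESC-higher although the median difference there was -1.42 points, whereas on chromosome 5 from 128 to 129 Mb, with 9 of 26, it was 32.4 points. ESC-higher sites thus occurred both where nearly all pairs leaned toward ESC and where they did not.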
